A study of Mus musculus with 6 samples.

Results

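The genes described here are 45 genes of the cell division cycle and of DNA replication, picked by symbol from a list of cyclins, cyclin-dependent kinases, replication factors and mitotic proteins. All 45 have an entry among the 24489 gene entries of the deposited table, and all 45 passed the filter on low counts that left 13819 genes for testing. The RNA is polyadenylated RNA from a lobe of mouse liver at postnatal day 10. It came from 3 Jag1Ndr/Ndr and 3 Jag1+/+ libraries of untreated pups, all of strain background C3H/C57bl6J. Jag1 encodes a Notch ligand, and Ndr (Nodder) is a germline missense allele, so every cell of a Jag1Ndr/Ndr pup carries it. The labels do not say that libraries come from separate pups, so the p-values measure the spread between libraries, which may be technical in part. Each genotype held libraries of both sexes by the reads given below, so its libraries do not all come from a single pup.

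Libraries held between 12992592 and 59653111 reads over genes. The hepatocyte product albumin (Alb) took between 10.3% and 17.3% of the reads. The sexes were mixed by Xist and Y-linked reads: Jag1+/+ replicate 1 and Jag1Ndr/Ndr replicates 2 and 3 were female and the other 3 libraries male. Each value below in CPM is a read count scaled by library size and by edgeR's TMM factors, and means are given ± SD with n = 3 libraries per genotype.

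A cell enters the cycle when D-type cyclins with Cdk4 and Cdk6, then E-type cyclins with Cdk2, inactivate the retinoblastoma proteins and release E2F transcription factors. E2F targets load the Mcm helicase onto replication origins and supply the replication fork with enzymes and deoxynucleotides. Later, the MYB-MuvB complex and Foxm1 turn on cyclins A and B, Cdk1 and the mitotic kinases, motors and checkpoint proteins. Hepatocytes of the newborn mouse still divide and leave the cycle over the first weeks, and the neonatal liver also holds dividing blood precursors. In RNA of a whole lobe, fewer cells of a type and less RNA per cell cannot be told apart.

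Promoters of cell cycle genes are known for sites through which the E2F and MYB-MuvB programmes act, and 2 genes with each kind of letters are shown so that the letters can be seen in sequence. The sequences are the 250 bases before a RefSeq start site on GRCm38.p6, written 5′ to 3′ on the strand of the gene. That is the plus strand for Cdc6 and the minus strand for the other 3. Capitals mark every match, on either strand, to TTTGAA or TTCGAA (the cell cycle homology region, CHR), to TTTCCCGC, TTTCGCGC, TTTGCCGC or TTTGGCGC (E2F), and to CCAAT. The first pair are an activator of mitotic exit and a mitotic cyclin, Cdc20 at chr4:118437344-118437593 and Ccnb2 at chr9:70421555-70421804. The second pair are origin licensing genes, Mcm6 at chr1:128359706-128359955 and Cdc6 at chr11:98907901-98908150. The Cdc6 stretch lies inside the annotated gene (chr11:98907709-98923942), so it precedes a later start and not the first base of the gene.
Cdc20: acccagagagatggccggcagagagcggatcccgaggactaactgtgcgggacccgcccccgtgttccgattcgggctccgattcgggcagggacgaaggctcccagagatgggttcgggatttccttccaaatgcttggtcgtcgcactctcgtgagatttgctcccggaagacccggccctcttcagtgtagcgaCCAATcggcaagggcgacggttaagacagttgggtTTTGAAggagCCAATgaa
Ccnb2: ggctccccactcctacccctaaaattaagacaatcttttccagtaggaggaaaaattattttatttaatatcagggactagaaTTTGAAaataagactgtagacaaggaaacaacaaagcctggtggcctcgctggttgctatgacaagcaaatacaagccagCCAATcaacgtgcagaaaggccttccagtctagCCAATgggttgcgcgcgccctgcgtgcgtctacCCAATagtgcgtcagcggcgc
Mcm6: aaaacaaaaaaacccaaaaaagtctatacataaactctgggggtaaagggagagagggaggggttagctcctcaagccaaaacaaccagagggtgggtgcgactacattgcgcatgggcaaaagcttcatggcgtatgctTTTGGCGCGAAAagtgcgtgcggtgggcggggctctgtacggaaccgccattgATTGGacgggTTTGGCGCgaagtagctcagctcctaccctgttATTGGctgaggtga
Cdc6: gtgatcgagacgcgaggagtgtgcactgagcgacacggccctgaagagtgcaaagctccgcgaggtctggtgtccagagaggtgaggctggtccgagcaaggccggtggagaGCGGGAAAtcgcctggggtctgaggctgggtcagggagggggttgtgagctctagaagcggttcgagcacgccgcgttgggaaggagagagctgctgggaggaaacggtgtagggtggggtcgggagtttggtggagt
Upstream of Cdc20 the matches are 1 CHR and 2 CCAAT, and upstream of Ccnb2 1 CHR and 3 CCAAT, with no E2F match in either. Upstream of Mcm6 there are 3 E2F matches, of which 2 overlap, and 2 CCAAT, and in the Cdc6 stretch a single E2F match.

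RefSeq windows of 300 bases (250 before and 50 after the start) were at hand for 36 of the 45 genes. A CHR match lay in the window of 10 of 11 mitosis genes. It lay in 21.7% of all 27025 genes with a window and in 16.4% of the 10381 of them that were tested. Among members, CHR also lay in 3 of 8 origin licensing genes (Mcm2, Mcm7 and Cdc45) and in 2 of 3 S, G2 and M cyclins and Cdk1. It lay in 0 of the 5 G1 cyclin and kinase genes with a window. An E2F match lay in 6 of 8 origin licensing genes, against 2.60% of all genes and 4.43% of tested genes, and in 0 of 11 mitosis genes. CCAAT lay in 27 of the 36 genes, against 41.1% of all genes and 42.6% of tested genes. Such a match is a description of the letters and no evidence of a bound factor.

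The comparison asked whether the livers of Jag1Ndr/Ndr pups differed from those of Jag1+/+ pups in the transcripts of dividing cells. No member of the list passed the threshold: 0 of 45 upward and 0 downward in the quasi-likelihood test of edgeR (Benjamini-Hochberg adjusted over all genes, threshold 0.05). Of all genes tested 7.63% passed, 4.73% higher and 2.90% lower. Higher calls made up 62.0% of all calls with TMM and 74.3% with library totals. The smallest adjusted p among the 45 was 0.12 for Tk1 and the largest 0.981 for Ccnd1. At an unadjusted p under 0.05 there were 3 members, E2f1, E2f2 and Tk1, which is 6.67% of the list against 22.5% of all genes tested. DESeq2 called 0 members, limma on the deposited RPKM 0, and limma with library quality weights 1, Tk1, as lower.

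Most estimates leaned to the Jag1Ndr/Ndr side. The log2 fold change (Jag1Ndr/Ndr over Jag1+/+) was positive for 36 members and negative for 9, with a median of 0.20, against 0.00 and 50.5% positive over all genes tested. It ranged from -0.61 for Cdk6 to 0.66 for Cdc6. The 95% interval lay within a 2-fold change in both directions for 34 members and reached 2-fold for 11. A single library moved this median: the median was 0.03 without Jag1Ndr/Ndr replicate 2, 0.26 without replicate 1 and 0.29 without replicate 3. It was 0.10 without Jag1+/+ replicate 2 and 0.13 with sex as a covariate. With library totals in place of TMM it was 0.35, where the median of all genes also moved up, to 0.13.

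**Figure D1:**
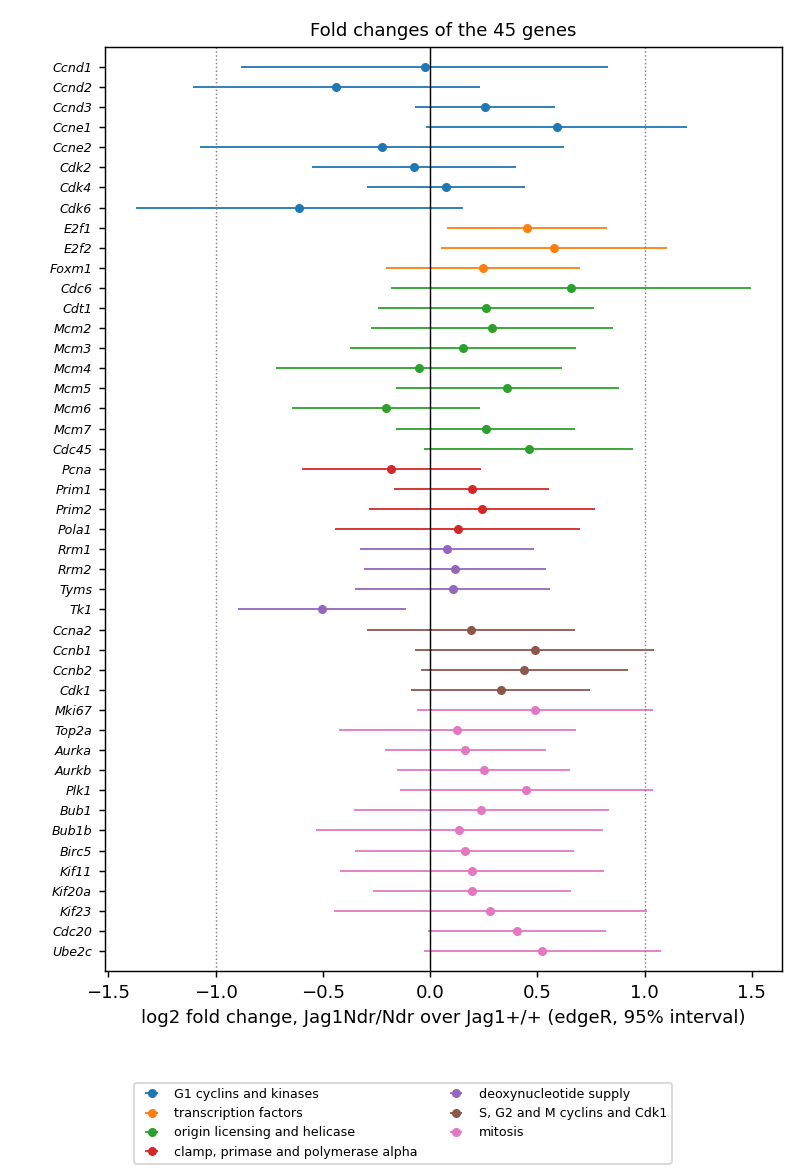
Log2 fold change of each of the 45 genes (points) with its 95% interval (bars), edgeR, 3 libraries per genotype, coloured by role. Intervals of 3 genes, E2f1, E2f2 and Tk1, lie to a side of 0, and 34 lie within the dotted lines that mark a 2-fold change.

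The D-type cyclins, which carry growth signals to the cycle, stood at different levels and went different ways. Cyclin D1 (Ccnd1, chr7:144929931-144939831 on GRCm38.p6) measured 141, 139 and 109 CPM in Jag1+/+ replicates 1, 2 and 3 and 109, 208 and 64.1 CPM in Jag1Ndr/Ndr replicates 1, 2 and 3. Its highest and its lowest library were both Jag1Ndr/Ndr, and the means were 129.5 ± 17.8 and 127 ± 73.7 CPM (log2 fold change -0.026 ± 0.37 SE, 95% interval -0.88 to 0.83, edgeR adjusted p = 0.981). Cyclin D2 (Ccnd2) measured 16.9, 22.3 and 22.9 CPM in Jag1+/+ and 9.75, 22.2 and 13.3 CPM in Jag1Ndr/Ndr libraries, with 2 of the Jag1Ndr/Ndr values under all of the Jag1+/+ ones. Cyclin D3 (Ccnd3) measured 54.3, 56.4 and 51.8 CPM in Jag1+/+ and 72.4, 64.1 and 57.7 CPM in Jag1Ndr/Ndr, so that the genotypes did not overlap, but the difference was small (log2 fold change 0.26 ± 0.14, edgeR adjusted p = 0.341). Its partner kinase Cdk4 was the most abundant of the 45 per transcript length. It measured 51.03 ± 4.86 RPKM in Jag1+/+ and 54.01 ± 7.06 RPKM in Jag1Ndr/Ndr livers. RPKM is reads per kilobase of transcript and library size, here from deposited values rescaled by TMM. The log2 fold change of Cdk4 was 0.076 ± 0.16, with a 95% interval of -0.29 to 0.44. The kit does not keep the strand, and Cdk4 shares 19.7% of its exon bases with Tspan31 on the opposite strand. Tspan31 measured 168, 162 and 183 CPM in Jag1+/+ and 225, 166 and 170 CPM in Jag1Ndr/Ndr libraries. Its part in the Cdk4 values was not tested. The related kinase Cdk6 was among the least abundant, at 4.46, 4.87 and 5.17 CPM in Jag1+/+ and 1.77, 4.59 and 2.83 CPM in Jag1Ndr/Ndr, low in Jag1Ndr/Ndr replicate 1, where only 20 reads were counted (log2 fold change -0.61 ± 0.33, edgeR adjusted p = 0.331).

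The E-type cyclins drive the step from G1 into S phase. Cyclin E1 (Ccne1) measured 10.9, 12.6 and 12.8 CPM in Jag1+/+ and 26.1, 16.8 and 12.2 CPM in Jag1Ndr/Ndr libraries. Jag1Ndr/Ndr replicate 1 stood highest and replicate 3 lay among the Jag1+/+ values, and the difference did not pass (log2 fold change 0.59 ± 0.27, 95% interval -0.020 to 1.20, edgeR adjusted p = 0.239). In the same replicate 1 cyclin E2 (Ccne2) stood lowest, at 1.95 CPM, against 5.82 and 4.59 CPM in the other Jag1Ndr/Ndr libraries and 3.996, 4.804 and 5.97 CPM in Jag1+/+. Their kinase Cdk2 was nearly constant in Jag1+/+ livers (23.2 ± 0.262 CPM) and spread from 15.6 to 27.4 CPM in Jag1Ndr/Ndr livers. Over the 8 G1 cyclins and kinases, 3 log2 fold changes were positive and 5 negative, with a median of -0.051.

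The 3 transcription factors leaned most clearly to the Jag1Ndr/Ndr side, with a median log2 fold change of 0.45. E2f1 (chr2:154559400-154569892), an activator of S phase genes, measured 11.8, 12.4 and 13.8 CPM in Jag1+/+ and 18.9, 17.8 and 15.2 CPM in Jag1Ndr/Ndr libraries. The genotypes did not overlap, and the log2 fold change of 0.45 ± 0.16 did not pass over all genes (edgeR adjusted p = 0.1401). E2f2, another activator, which also acts in maturing red cell precursors, measured 25.5, 20.97 and 27.8 CPM in Jag1+/+ and 38.7, 46.3 and 25.4 CPM in Jag1Ndr/Ndr, with Jag1Ndr/Ndr replicate 3 inside the Jag1+/+ range (log2 fold change 0.58 ± 0.23, edgeR adjusted p = 0.184). Foxm1, which activates mitotic genes, measured 21.4, 17.04 and 24.9 CPM in Jag1+/+ and 20.8, 29.3 and 24.7 CPM in Jag1Ndr/Ndr and overlapped (edgeR adjusted p = 0.535).

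Of the 9 genes of origin licensing and of the replicative helicase, 7 were highest of all in Jag1Ndr/Ndr replicate 2, and none passed. Mcm2 to Mcm7 form the ring that unwinds DNA, and Mcm2 measured 37.4, 36.9 and 38.4 CPM in Jag1+/+ and 40.5, 65.02 and 31.6 CPM in Jag1Ndr/Ndr libraries. The coefficient of variation was 2.11% in Jag1+/+ and 37.8% in Jag1Ndr/Ndr libraries. Mcm5 measured 45.6, 49.3 and 55.99 CPM in Jag1+/+ and 62.5, 85.3 and 45.7 CPM in Jag1Ndr/Ndr, and Mcm4 36.9, 38.8 and 40.6 CPM in Jag1+/+ and 24.3, 57.2 and 29.9 CPM in Jag1Ndr/Ndr. In both, as in Mcm2 and Mcm3, Jag1Ndr/Ndr replicate 2 was the highest of the 6 libraries. Mcm6, the most abundant of the ring per transcript length (37.7 RPKM in Jag1+/+), was an exception, at 94.1, 107 and 118 CPM in Jag1+/+ and 98.1, 108 and 71.3 CPM in Jag1Ndr/Ndr, where Jag1+/+ replicate 3 was highest. Cdc6, which loads the ring, had the largest estimate of the list, and a single library stood out: 4.69, 4.67 and 5.35 CPM in Jag1+/+ and 5.32, 12.6 and 4.85 CPM in Jag1Ndr/Ndr (log2 fold change 0.66 ± 0.37, 95% interval -0.18 to 1.5, edgeR adjusted p = 0.344). Without Jag1Ndr/Ndr replicate 2 its log2 fold change was 0.052. Cdc45, a helicase cofactor that travels with the fork, measured 8.11, 7.24 and 8.09 CPM in Jag1+/+ and 10.5, 13.2 and 8.32 CPM in Jag1Ndr/Ndr and did not overlap (log2 fold change 0.46 ± 0.21, edgeR adjusted p = 0.249). The loader Cdt1 measured 18.3, 22.6 and 21.3 CPM in Jag1+/+ and 26.5, 30.5 and 17.4 CPM in Jag1Ndr/Ndr, spanning the Jag1+/+ range, and Mcm7 and Mcm3 had log2 fold changes of 0.26 ± 0.18 and 0.15 ± 0.23.

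At the fork itself the estimates were small. The sliding clamp Pcna measured 26.2, 23.7 and 28.6 CPM in Jag1+/+ and 21.9, 28.1 and 19.04 CPM in Jag1Ndr/Ndr libraries (log2 fold change -0.18 ± 0.18, 95% interval -0.60 to 0.24). The primase subunits Prim1 and Prim2 had log2 fold changes of 0.20 ± 0.16 and 0.24 ± 0.23, and the catalytic subunit of polymerase alpha, Pola1, 0.13 ± 0.25. Their edgeR adjusted p-values ran from 0.539 to 0.822.

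Among enzymes of deoxynucleotide supply, thymidine kinase Tk1 (chr11:117815519-117826087) stood apart. It measured 31.04, 27.8 and 31.9 CPM in Jag1+/+ and 25.9, 18.4 and 20 CPM in Jag1Ndr/Ndr libraries, the only member of the 45 with all of its Jag1Ndr/Ndr values under all of its Jag1+/+ values. The log2 fold change of -0.50 ± 0.17 did not pass (95% interval -0.90 to -0.11, edgeR adjusted p = 0.12), but passed without Jag1Ndr/Ndr replicate 1 (adjusted p = 0.0271) and by limma with quality weights (adjusted p = 0.0468). Tk1 shares 83 bases of exon, 1.6% of its annotated exon bases, with Afmid on the opposite strand, a liver enzyme of tryptophan breakdown, and the kit does not keep the strand. Afmid measured 174, 155 and 188 CPM in Jag1+/+ and 82.7, 51.6 and 77.1 CPM in Jag1Ndr/Ndr libraries, which is -1.29 ± 0.21 on the log2 scale (edgeR adjusted p = 0.01099), and its part in the Tk1 value was not tested. The ribonucleotide reductase subunits Rrm1 and Rrm2, at log2 fold changes of 0.080 ± 0.18 and 0.12 ± 0.19, and thymidylate synthase Tyms, at 0.11 ± 0.20, had edgeR adjusted p-values between 0.774 and 0.848. For Rrm1 the values were 61.96, 60.2 and 71.5 CPM in Jag1+/+ and 61.3, 83.8 and 59.2 CPM in Jag1Ndr/Ndr libraries, which overlapped.

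The cyclins of S, G2 and M phase and their kinase Cdk1 had positive estimates in 4 of 4 cases, and none passed. Cyclin A2 (Ccna2) measured 52.2, 33.4 and 44.5 CPM in Jag1+/+ and 42.8, 60.98 and 44.2 CPM in Jag1Ndr/Ndr libraries. Cyclin B1 (Ccnb1) was scarce, at 4.05, 2.95 and 2.95 CPM in Jag1+/+ and 4.96, 4.95 and 3.95 CPM in Jag1Ndr/Ndr. Cyclin B2 (Ccnb2), one of the genes shown above with matches to CHR and CCAAT letters, measured 26.5, 15.1 and 21.7 CPM in Jag1+/+ and 29.7, 29.9 and 26.1 CPM in Jag1Ndr/Ndr. Its Jag1Ndr/Ndr values were close together and Jag1+/+ replicate 2 was low, and the highest Jag1+/+ value lay just above the lowest Jag1Ndr/Ndr value (log2 fold change 0.44 ± 0.21, 95% interval -0.044 to 0.93, edgeR adjusted p = 0.269). Cdk1, which starts mitosis, measured 31.8, 21.6 and 28.9 CPM in Jag1+/+ and 33.9, 38.5 and 30.8 CPM in Jag1Ndr/Ndr (log2 fold change 0.33 ± 0.18, edgeR adjusted p = 0.337).

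All 13 mitosis genes had a positive estimate, between 0.13 and 0.52 on the log2 scale, and none passed (edgeR adjusted p between 0.231 and 0.841). The proliferation marker Mki67 (chr7:135689784-135716450) measured 121, 93.6 and 132 CPM in Jag1+/+ and 153, 214 and 119.6 CPM in Jag1Ndr/Ndr libraries. Only Jag1Ndr/Ndr replicates 1 and 2 stood above the Jag1+/+ range (log2 fold change 0.49 ± 0.24, 95% interval -0.062 to 1.04, edgeR adjusted p = 0.2805). Topoisomerase Top2a, which untangles sister DNA, measured 89.01, 68.7 and 90.8 CPM in Jag1+/+ and 71.3, 125 and 74.8 CPM in Jag1Ndr/Ndr and overlapped (log2 fold change 0.13 ± 0.24).

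Ube2c and Cdc20 work with the anaphase-promoting complex, which ends mitosis by marking cyclin B for destruction. Ube2c measured 23.8, 13.8 and 17.4 CPM in Jag1+/+ and 28.1, 30.5 and 20.2 CPM in Jag1Ndr/Ndr libraries (log2 fold change 0.52 ± 0.24, edgeR adjusted p = 0.248). Cdc20 measured 22.2, 16.5 and 21.3 CPM in Jag1+/+ and 31.02, 25.3 and 23.4 CPM in Jag1Ndr/Ndr, without overlap (log2 fold change 0.41 ± 0.18, 95% interval -0.0079 to 0.82, edgeR adjusted p = 0.231). Cdc20 shares 53 exon bases, 2.84% of its own, with the fatty acid elongase Elovl1 on the opposite strand, which measured 31.7, 27.6 and 29.9 CPM in Jag1+/+ and 68.3, 43.7 and 49.2 CPM in Jag1Ndr/Ndr libraries (log2 fold change 0.85 ± 0.19, edgeR adjusted p = 0.0327). Its part in the Cdc20 value was not tested. In all, 15 members share exon bases with a gene on the opposite strand, and 5 have a named pseudogene that can share reads (Ccnb1, Ccnb2, Ccnd3, Pcna and Tyms). The largest shares were in Kif20a (29.3%), Ccnd1 (23.4%), Ube2c (22.8%), Cdk4 (19.7%) and Ccne2 (17.4%). For LTO1, opposite Ccnd1, no entry was matched under that symbol and older symbols were not searched, so its level is not given. Tnnc2, opposite Ube2c, was at most 0.1403 CPM in every library. Ints8, opposite Ccne2, measured 19.1, 17.3 and 17.3 CPM in Jag1+/+ and 14.4, 21.0 and 19.7 CPM in Jag1Ndr/Ndr libraries. Cdc23, opposite Kif20a, measured 23.5, 26.2 and 23.7 CPM in Jag1+/+ and 14.2, 22.8 and 19.3 CPM in Jag1Ndr/Ndr libraries. The part of these neighbours was not tested.

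Among the mitotic kinases, Plk1, which acts from entry to exit, stood at 15.6, 10.7 and 14.5 CPM in Jag1+/+ and 13.1, 24.8 and 17.2 CPM in Jag1Ndr/Ndr libraries, with Jag1Ndr/Ndr replicate 2 highest (log2 fold change 0.45 ± 0.26). Aurka, which builds the spindle poles, and Aurkb, of the chromosomal passenger complex, had log2 fold changes of 0.17 ± 0.16 and 0.25 ± 0.18. The passenger subunit Birc5 (survivin) stood at 0.16 ± 0.22, and the spindle checkpoint proteins Bub1 and Bub1b at 0.24 ± 0.26 and 0.14 ± 0.29. The motors Kif11, of spindle bipolarity, and Kif20a and Kif23, of cytokinesis, stood at 0.20 ± 0.27, 0.20 ± 0.20 and 0.28 ± 0.32.

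Only 5 of the 45 genes had genotypes that did not overlap, 4 with the Jag1Ndr/Ndr libraries above (Ccnd3, E2f1, Cdc45 and Cdc20) and Tk1 with them below. That is 11.1% of the list, where 29.0% of all genes tested had genotypes apart, 14.8% above and 14.2% below. Spread was wider among Jag1Ndr/Ndr libraries for the list as for other genes. The median coefficient of variation of the 45 was 13.7% in Jag1+/+ and 22.9% in Jag1Ndr/Ndr, beside 11.8% and 22.2% over all genes tested.

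**Figure D2:**
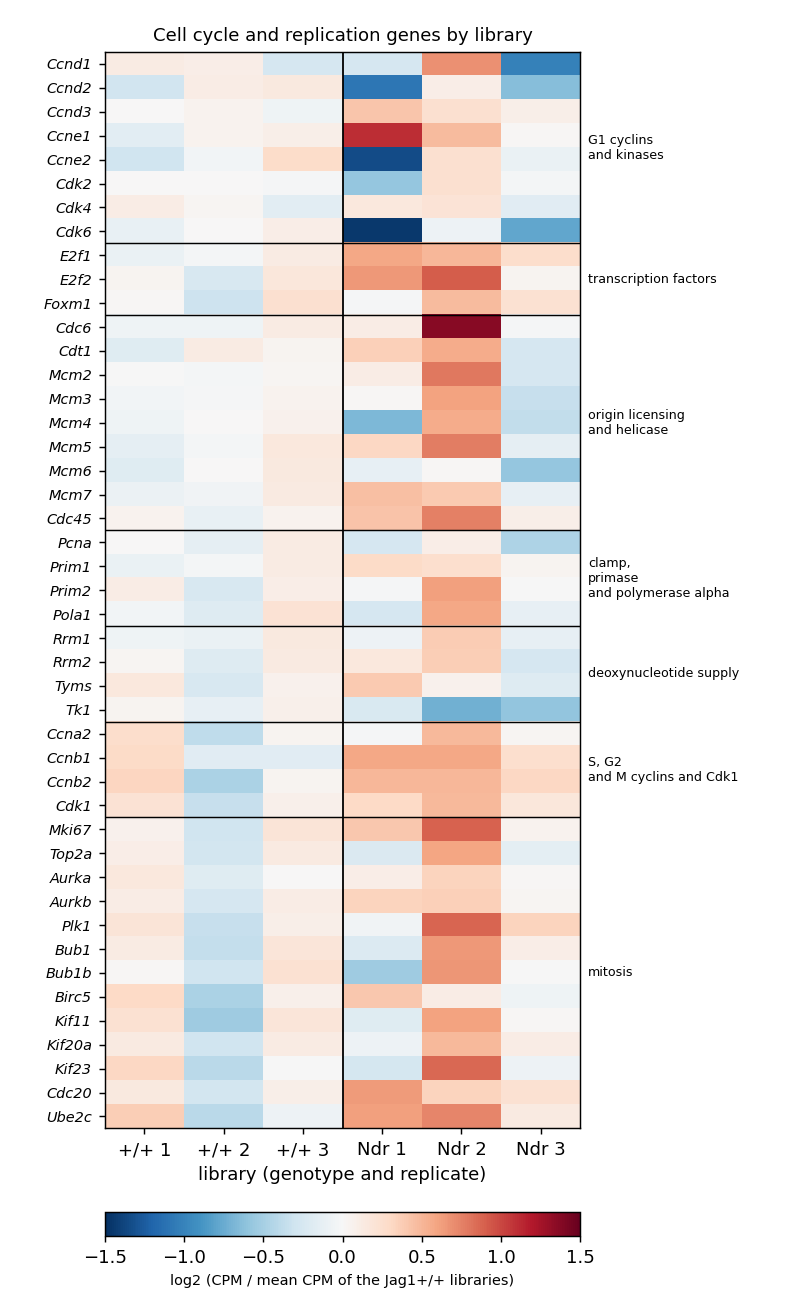
Each row is a gene, grouped by role, and each column a library; colour is log2 of its CPM over the mean CPM of the 3 Jag1+/+ libraries. Jag1Ndr/Ndr replicate 2 is red in nearly every row (43 of 45 above the Jag1+/+ mean), and Jag1+/+ replicate 2 is blue through the mitosis rows.

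Compared library by library, many members were high or low in the same single libraries. Jag1Ndr/Ndr replicate 2 was the highest of the 3 Jag1Ndr/Ndr libraries for 35 of 45 members, a place it held for 35.3% of all genes tested. It was the highest of all 6 libraries for 30 members, against 20.8% of all genes. Jag1Ndr/Ndr replicate 3 was the lowest of its genotype for 28 members, against 26.7% of all genes, and for 8 of the 9 origin licensing genes. Relative to the Jag1+/+ mean, the median member stood at 0.10, 0.49 and -0.02 on the log2 scale in Jag1Ndr/Ndr replicates 1, 2 and 3. In Jag1+/+ replicates 1, 2 and 3 it stood at 0.04, -0.17 and 0.10. Jag1Ndr/Ndr replicate 2 was also the deepest library, with 59653111 reads against 12992592 and 17478916 in replicates 1 and 3. The quality weights of limma were 0.34, 0.48 and 1.24 in Jag1Ndr/Ndr and 1.29, 2.69 and 1.39 in Jag1+/+ replicates 1, 2 and 3. The part of depth or quality in these levels was not tested.

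Within Jag1+/+ livers replicate 2 was the lowest library for 28 of the 45 members, against 29.3% of all genes tested. It was lowest for 13 of 13 mitosis genes, for 4 of 4 genes of deoxynucleotide supply, for 3 of the 4 S, G2 and M cyclins and Cdk1, for 3 of 4 genes of the clamp, primase and polymerase alpha, and for 2 of 3 transcription factors. It was lowest for 3 of the 9 origin licensing genes and for 0 of the 8 G1 cyclins and kinases. The spindle motor Kif11, for example, measured 25.5, 15.2 and 24.9 CPM there. Grouped by promoter, replicate 2 was lowest for 15 of the 16 genes with a CHR match and for 8 of the 20 without. Their median log2 fold changes between genotypes were 0.31 and 0.14. Of these 16 genes 10 are mitosis genes and all 16 also hold CCAAT, so CHR, CCAAT and role cannot be told apart here. Replicate 2 was lowest for 4 of the 10 genes with an E2F match and for 19 of the 26 without. The median log2 fold changes of those 2 groups were 0.26 and 0.22. The groups by promoter were formed with these values known and were not tested.

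Summed over the 13 mitosis genes, the level was 439, 319 and 437 CPM in Jag1+/+ and 446, 626 and 404 CPM in Jag1Ndr/Ndr replicates 1, 2 and 3. For the 9 origin licensing genes the sum was 318, 341 and 369 CPM and 356, 481 and 273 CPM. Both sums overlapped between the genotypes. For the 8 G1 cyclins and kinases, where Ccnd1 makes up the largest share, it was 327, 331 and 291 CPM and 311, 426 and 237 CPM, with both extremes in Jag1Ndr/Ndr libraries. For deoxynucleotide supply it was 153, 138 and 166 CPM and 154, 172 and 128 CPM, with means of 152 and 152 CPM.

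**Figure D3:**
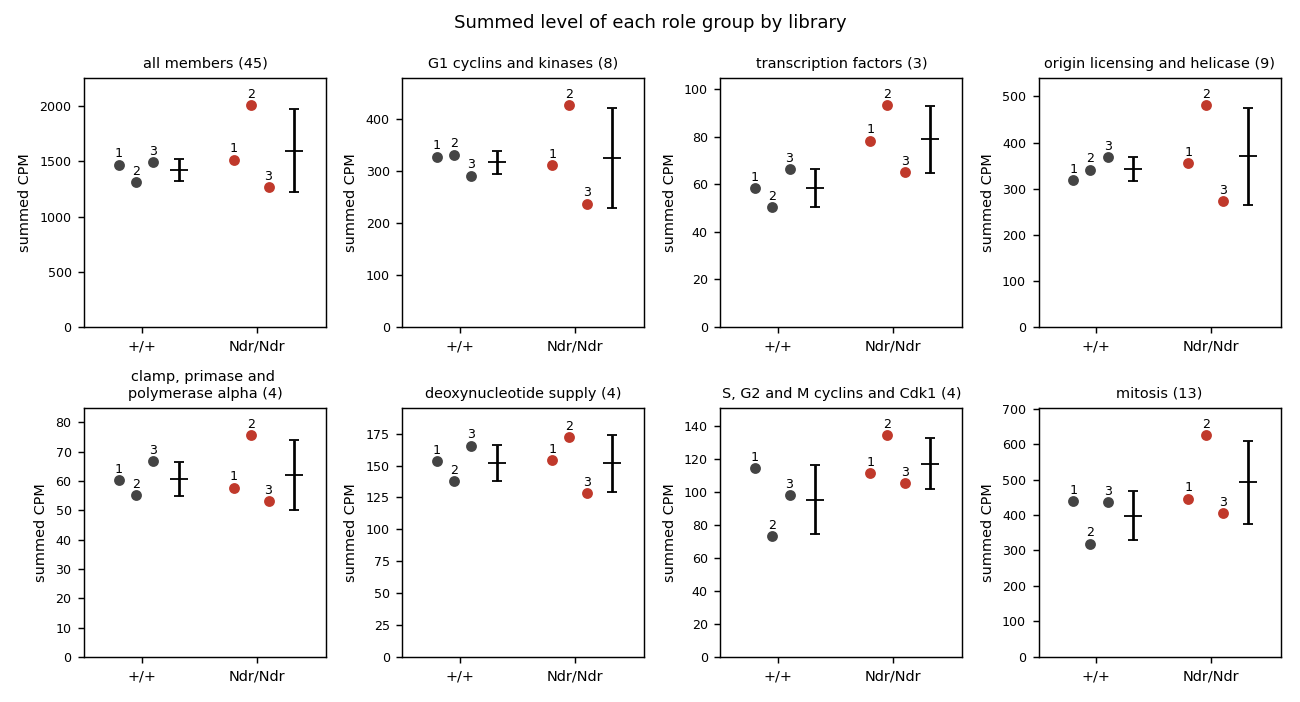
Summed CPM of each role group in each library (points, numbered by replicate; the number of genes is in the title), with mean and SD of the 3 libraries beside them; axes start at 0. The genotypes overlap in every panel, and Jag1Ndr/Ndr replicate 2 is the highest point of each.

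Regulators outside the 45 genes were taken from lists of the same pathway. Of 8 tested CDK inhibitors and retinoblastoma family genes, 1 fell and 0 rose (median log2 fold change 0.026). That gene was Cdkn1c, which encodes p57, an imprinted inhibitor of G1 and S phase kinases. It measured 88.3, 87.2 and 88.2 CPM in Jag1+/+ libraries, which were nearly identical, and 21.2, 37.6 and 23.5 CPM in Jag1Ndr/Ndr libraries. This is a 3.18-fold fall (log2 fold change -1.67 ± 0.22, edgeR adjusted p = 0.00595), and it stayed past the threshold in each of the 16 alternatives run. The p53 target Cdkn1a (p21) measured 29.2, 31.4 and 24.8 CPM in Jag1+/+ and 35.9, 36.97 and 40.7 CPM in Jag1Ndr/Ndr libraries, without overlap, and did not pass (log2 fold change 0.41 ± 0.15, edgeR adjusted p = 0.137). Cdkn1b (p27) stood at 0.075 ± 0.16 (95% interval -0.28 to 0.43).

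Of 13 other E2F, DREAM and MYB-MuvB factors 0 passed by edgeR, 1 by DESeq2 and 0 by limma on the RPKM. That one was the repressor E2f4, also the 1 factor with an unadjusted edgeR p under 0.05, at 36.7, 35.8 and 29.8 CPM in Jag1+/+ and 52.6, 54.02 and 41.2 CPM in Jag1Ndr/Ndr libraries (log2 fold change 0.53 ± 0.16, edgeR adjusted p = 0.0888, named after its values were seen). E2f8, another repressor, and the mitotic activator Mybl2 had log2 fold changes of 0.24 ± 0.33 and 0.37 ± 0.40, which turned to -0.28 and -0.088 without Jag1Ndr/Ndr replicate 2. Of 42 other DNA replication genes 1 fell and 0 rose, with a median of 0.070. Orc5, a subunit of the origin recognition complex, went from 29.1, 26.4 and 25.4 CPM in Jag1+/+ to 14.6, 15.5 and 15.8 CPM in Jag1Ndr/Ndr libraries (log2 fold change -0.82 ± 0.14, edgeR adjusted p = 0.0141). Of 57 other mitosis genes 1 rose and 0 fell, with a median of 0.26 and 51 positive estimates. Cdc25a, a phosphatase that activates Cdk2 and Cdk1, went from 14.7, 14.7 and 12.3 CPM in Jag1+/+ to 24.9, 33.3 and 27.5 CPM in Jag1Ndr/Ndr, a 2.06-fold rise (log2 fold change 1.05 ± 0.17, edgeR adjusted p = 0.0116). The median fell to 0.09, with 36 positive estimates, without Jag1Ndr/Ndr replicate 2. Spc25, also named after its values were seen, measured 49.5, 32.9 and 40.9 CPM in Jag1+/+ and 25.5, 27.6 and 25.8 CPM in Jag1Ndr/Ndr libraries. It passed as lower by DESeq2 but not by edgeR (log2 fold change -0.64 ± 0.17, edgeR adjusted p = 0.0619). Summed over these 57 genes, Jag1Ndr/Ndr replicate 2 again stood highest and Jag1+/+ replicate 2 lowest, with 911, 687 and 903 CPM in Jag1+/+ and 899, 1205 and 901 CPM in Jag1Ndr/Ndr libraries.

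Of 14 checkpoint and p53 response genes 2 rose and 0 fell. Btg2, an antiproliferative target of p53 and of growth signals, went from 41.8, 37.6 and 43.6 CPM in Jag1+/+ to 88.9, 92.7 and 82.03 CPM in Jag1Ndr/Ndr (log2 fold change 1.1 ± 0.14, edgeR adjusted p = 0.00472). Gadd45b, a stress sensor induced by inflammatory signals, was scarce and went from 1.04, 1.298 and 1.21 CPM in Jag1+/+ to 4.52, 7.001 and 2.29 CPM in Jag1Ndr/Ndr (log2 fold change 1.97 ± 0.41, edgeR adjusted p = 0.0262). Among 12 tested mitogens, their receptors and Myc genes, 2 rose and 1 fell. DESeq2 also called Met lower, as did edgeR with the replicate number as a block. The receptor Egfr went from 22.5, 28.2 and 24.2 CPM in Jag1+/+ to 66.8, 62.6 and 47.9 CPM in Jag1Ndr/Ndr libraries and rose 2.36-fold (edgeR adjusted p = 0.00709). Its ligand Hbegf went from 3.01, 2.402 and 1.99 CPM in Jag1+/+ to 10.99, 10.2 and 4.85 CPM in Jag1Ndr/Ndr and rose 3.55-fold (edgeR adjusted p = 0.0184). Igf1, the growth hormone-dependent growth factor of the liver, went from 685, 707 and 995 CPM in Jag1+/+ to 255, 262 and 345 CPM in Jag1Ndr/Ndr and fell 2.77-fold (edgeR adjusted p = 0.00931). Myc measured 22.8, 9.54 and 7.36 CPM in Jag1+/+ and 15.8, 27.4 and 20.1 CPM in Jag1Ndr/Ndr libraries, with Jag1+/+ replicate 1 inside the Jag1Ndr/Ndr range (log2 fold change 0.69 ± 0.41, edgeR adjusted p = 0.373).

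Several of these calls depended on a library or a scaling. Without Jag1+/+ replicates 1, 2 and 3, the edgeR adjusted p of Cdc25a was 0.0525, 0.0547 and 0.0635, that of Orc5 0.0666, 0.0755 and 0.0635, and that of Hbegf 0.0583, 0.0852 and 0.0853. Gadd45b stood at 0.101, 0.0962 and 0.102 there, at 0.0535 without Jag1Ndr/Ndr replicate 2 and at 0.0687 with sex as a covariate. Orc5 had an adjusted p of 0.0895 with library totals. On log2 of RPKM + 1, limma gave Orc5, Cdc25a, Egfr and Gadd45b adjusted p-values of 0.616, 0.168, 0.0748 and 0.0622. Btg2, Igf1 and Cdkn1c passed in all 16 alternatives. Leaving out Jag1Ndr/Ndr replicate 2 gave 2 other replication genes lower in place of 1, and leaving out replicate 3 gave 2 other mitosis genes higher in place of 1.

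**Figure D4:**
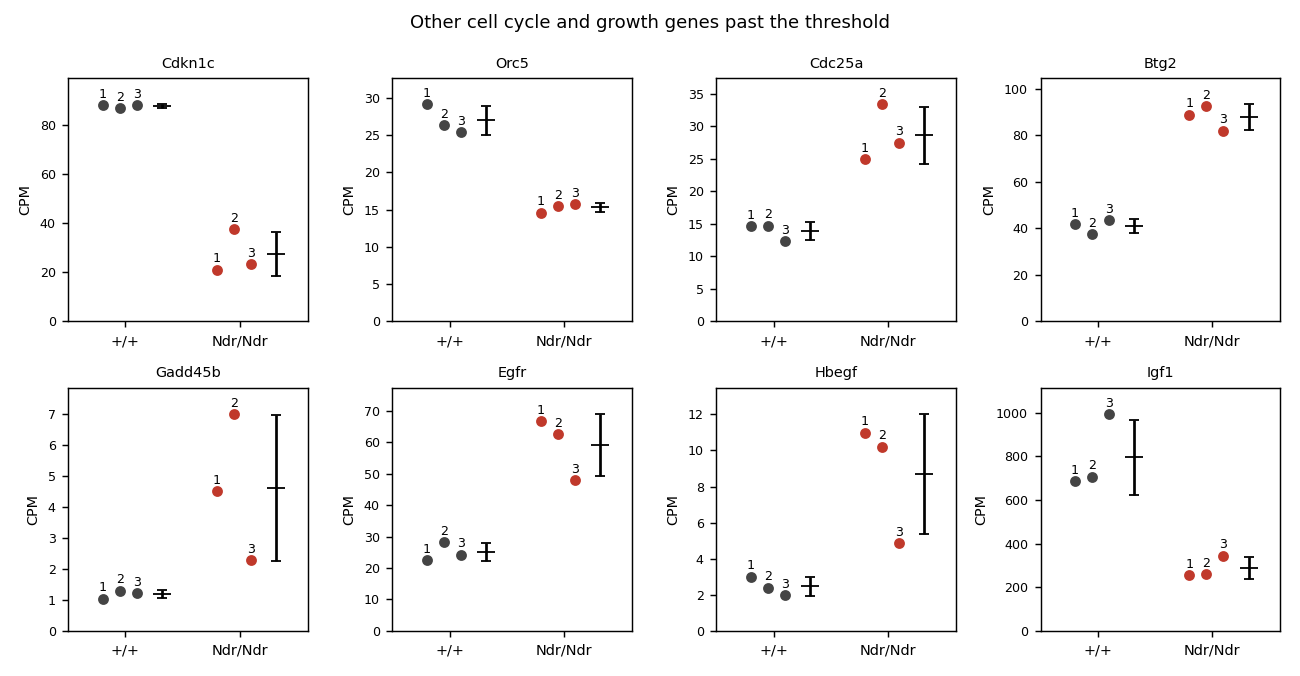
CPM of the 8 pathway genes outside the list that passed the threshold, by library (points, numbered by replicate) with mean and SD of 3 libraries per genotype; axes start at 0. In each panel all points of a genotype lie to a side of all points of the other, as with Cdkn1c at 87.2 CPM or more in Jag1+/+ and 37.6 CPM or less in Jag1Ndr/Ndr.

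Markers of other cells of the newborn liver also differed between the libraries. The markers named here were picked after their values were seen. Of 10 tested erythroid markers 3 were higher and 0 lower in Jag1Ndr/Ndr livers by edgeR, among them Slc4a1 and Rhag. Slc4a1, the anion exchanger of the red cell membrane, measured 65.1, 40.2 and 21.3 CPM in Jag1+/+ and 226, 234 and 80.7 CPM in Jag1Ndr/Ndr libraries (log2 fold change 2.10 ± 0.49, edgeR adjusted p = 0.0393). The summed erythroid level was 327, 335 and 449 CPM in Jag1+/+ and 632, 651 and 397 CPM in Jag1Ndr/Ndr libraries, with Tfrc, which other cells also express, included. The alpha globin entries Hba-a1 and Hba-a2 are listed at 0 in every library. With sex as a covariate, or after leaving out replicate 2 or 3 of Jag1+/+ or replicate 1 or 2 of Jag1Ndr/Ndr, 0 erythroid markers passed. The count was 6 without Jag1Ndr/Ndr replicate 3, 2 without Jag1+/+ replicate 1 and 8 by DESeq2.

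Of 10 granulocyte precursor and neutrophil markers 7 were higher and 0 lower. Their sum was 756, 633 and 623 CPM in Jag1+/+ and 1071, 2403 and 1529 CPM in Jag1Ndr/Ndr libraries, highest in replicate 2. The count was 0 without Jag1+/+ replicate 2 or replicate 3, and 2 without Jag1+/+ replicate 1 or with sex as a covariate. Of 9 B cell precursor markers 1 was lower, Cd79b, and the sum was 89.5, 67.9 and 101 CPM in Jag1+/+ and 14.9, 65.7 and 39.5 CPM in Jag1Ndr/Ndr libraries. The count was 2 without Jag1Ndr/Ndr replicate 2 and 0 without any other single library, with library totals and by limma on the RPKM.

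Of 9 hepatocyte markers 2 were lower, Ttr and Cyp2e1, with sums of 225850 to 232820 CPM in Jag1+/+ and 111060 to 191770 CPM in Jag1Ndr/Ndr libraries, lowest in replicate 2. The count was 1, Cyp2e1, without Jag1+/+ replicate 1, 2 or 3 or Jag1Ndr/Ndr replicate 3, and 5 without Jag1Ndr/Ndr replicate 1. It was 4 by DESeq2 and with library totals, both with Alb, and 5 by limma with quality weights. Of 7 macrophage markers 1 was higher, Cd68, with sums of 620.3 to 1100.3 CPM in Jag1+/+ and 1344 to 2272 CPM in Jag1Ndr/Ndr libraries. The call of Cd68 was kept without Jag1Ndr/Ndr replicate 3, and without any other single library, with sex as a covariate or with quality weights 0 macrophage markers passed; DESeq2 called 3 (Marco, Cd5l and Cd68). Of 7 stellate cell and fibroblast markers 1 was lower, Reln, while 4 of the 7 estimates were positive (median log2 fold change 0.26), with sums of 899 to 1013 CPM in Jag1+/+ and 686 to 1092 CPM in Jag1Ndr/Ndr libraries. DESeq2 called Des and Dcn higher beside Reln lower. Of the fits without a single library, the one without Jag1Ndr/Ndr replicate 2 kept Reln and the one without replicate 3 called Des higher, and Reln was also lost with sex as a covariate, with library totals and by limma on the RPKM.

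None of the 6 megakaryocyte, 5 T and NK cell, 6 cholangiocyte and 6 endothelial markers tested passed by edgeR. At an unadjusted p under 0.05 there were 3 megakaryocyte markers (Itga2b and Gp9 among them), 1 of T and NK cells (Klrb1c), 0 of cholangiocytes and 1 of endothelium (Kdr). DESeq2 called 1 of these 23 markers, Itga2b, and limma with quality weights 1, Kdr. Kdr also passed without Jag1Ndr/Ndr replicate 2, and Itga2b and Spp1 without Jag1Ndr/Ndr replicate 3. The megakaryocyte sum was 22.97 to 67.6 CPM in Jag1+/+ and 62.3 to 126 CPM in Jag1Ndr/Ndr libraries, and the endothelial sum 441 to 492 and 382 to 482 CPM. The part of any of these cells in the levels of the 45 genes was not tested.

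**Figure D5:**
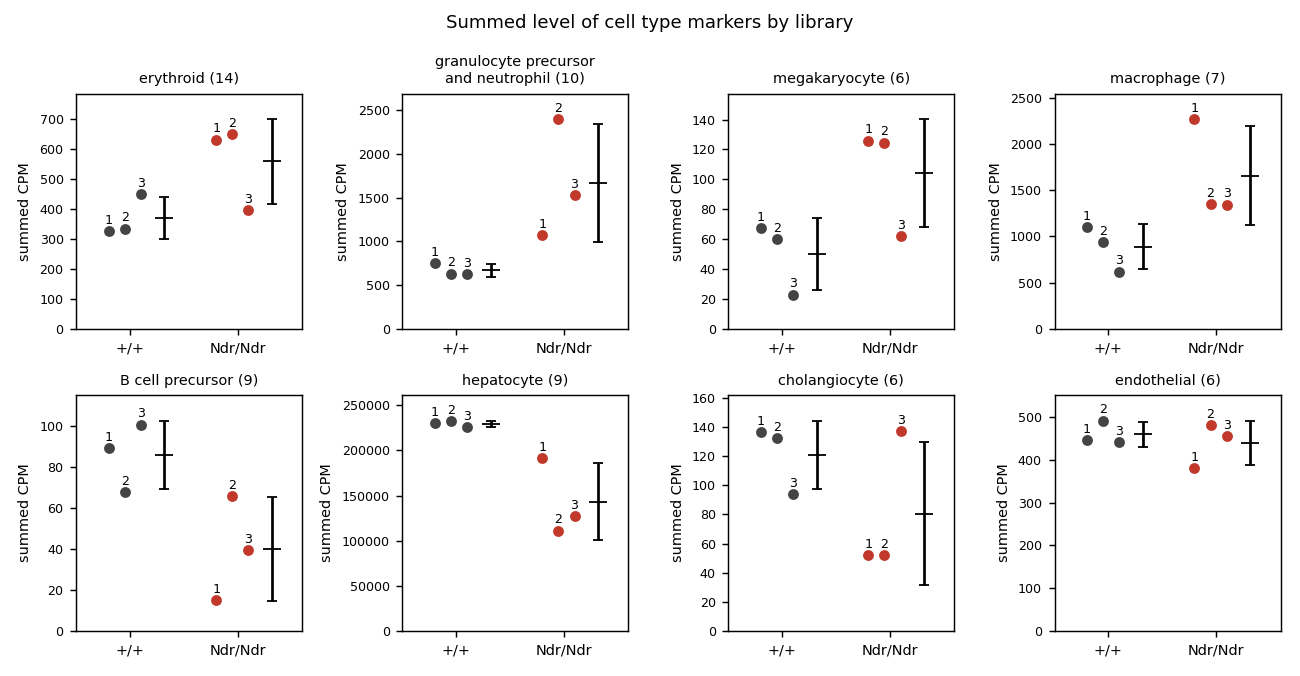
Summed CPM of the markers of each cell type in each library (points, numbered by replicate; the number of markers with an entry is in the title), with mean and SD of 3 libraries; axes start at 0. Granulocyte and erythroid markers are highest and hepatocyte markers lowest in Jag1Ndr/Ndr replicate 2, the library with the highest sum of cell cycle genes. Macrophage and megakaryocyte markers are highest in Jag1Ndr/Ndr replicate 1 and cholangiocyte markers in replicate 3. B cell precursor markers are highest in Jag1+/+ replicate 3 and endothelial markers in Jag1+/+ replicate 2. Alb makes up 86174 of the 111060 CPM of hepatocyte markers in Jag1Ndr/Ndr replicate 2.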

How the data were processed

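Per the labels' protocols, polyadenylated RNA was sequenced, and the library kit keeps no strand information. Per the submitters' processing notes, STAR and mm10 were used; versions and the read counter are not given in the sources used here. The authors deposited read counts per RefSeq entry for each library, not normalized, and RPKM multiplied by a TMM factor per library, per the file headers. Genotypes come from the sample titles. The 45 genes, the other lists, the alternatives and the rule for named genes (any member, then the 3 smallest p past the threshold of each pathway list and a fixed few) were chosen with earlier results of these data known. Of 231 other listed genes 228 have an entry, 4 of the 276 listed through an older symbol; Hbb-bt, one of the fixed few, has none, and another of them is not reported here. Spike-in and eGFP entries (93, with 5 reads) were left out.

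Counts were filtered with filterByExpr, normalised by TMM and fitted in edgeR 4.0.16 (R 4.3.3), with a two-sided quasi-likelihood test and Benjamini-Hochberg adjustment over 13819 genes; limma 3.58.1 and DESeq2 1.42.0 served for alternatives. The common biological coefficient of variation was 0.243. The standard error was taken as the estimate divided by the root of F, and 95% intervals use t with 8.36 degrees of freedom. Levels per length are the deposited RPKM divided by the header factor and by edgeR's factor. In the shallowest library 0 reads would allow a level of 0.231 CPM by library total (3 reads, counting error only). This is before its TMM factor of 0.869, which raises it. The 16 alternatives were DESeq2, no or a stricter filter, 2 other scalings, limma on log2 RPKM with pseudocounts of 1 and 0.1, limma with quality weights, a sex covariate, a replicate block and leaving out each library. Promoter windows, positions and symbols are RefSeq's on GRCm38.p6, and exon overlaps GENCODE's on GRCm38; 20 bases after the start of 35 of 39 windows of members were found in a transcript of the gene, and in 0 on the other strand.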

Additional observations from a re-analysis of the deposited data

How the results depend on the processing

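In 14 of the 16 alternatives 0 of the 45 members passed; the other two called 1 member, Tk1, as lower (limma with quality weights, and edgeR without Jag1Ndr/Ndr replicate 1; 0 to 1 over the libraries left out). The median log2 fold change of the members stayed positive, between 0.03 and 0.29 over the libraries left out. Of the 45 members 25 kept the sign of their estimate in all 16 alternatives. The cause of the changes below was not tested.

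Signs turned with library totals for Ccnd1 (0.14), Cdk2 (0.079) and Mcm4 (0.12). With limma on RPKM they turned for Ccnd1 (0.063 with a pseudocount of 1 and 0.058 with 0.1), Cdk2 (0.13 and 0.12), Mcm4 (0.098 and 0.082), Mcm6 (0.023 and 0.021) and Pcna (0.046 and 0.042). The RPKM were used as deposited, multiplied by the header factors (0.796 and 1.276 in Jag1Ndr/Ndr replicates 1 and 2). CPM is instead divided by edgeR's factors (0.869 and 1.195 there). On the RPKM the median of all genes moved up as well, to 0.18 and 0.22. With quality weights Cdk4 (-0.042) and Mcm3 (-0.061) turned, and with sex as a covariate Bub1b (-0.077). Over the libraries left out, estimates of 21 named genes took both signs: Ccnd1 -0.58 to 0.29, Tyms -0.056 to 0.23, Top2a -0.18 to 0.26, Bub1b -0.24 to 0.37, Birc5 -0.035 to 0.33, Kif11 -0.074 to 0.34, Cdk4 -0.0019 to 0.19, Ccne2 -0.57 to 0.074, Cdk2 -0.27 to 0.10, Mcm4 -0.51 to 0.17, Mcm2 -0.054 to 0.49, Mcm3 -0.15 to 0.34, Prim2 -0.0049 to 0.34, Pola1 -0.18 to 0.27, Rrm1 -0.095 to 0.17, Rrm2 -0.025 to 0.27, Bub1 -0.038 to 0.40, Kif23 -0.16 to 0.47, E2f8 -0.28 to 0.46, Mybl2 -0.088 to 0.71 and Cdkn1b -0.044 to 0.13.

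Over all genes edgeR called 653 higher and 401 lower. DESeq2 called 1137 and 753, library totals 210 lower, limma on RPKM 388 and 101 with a pseudocount of 1 and 427 and 117 with 0.1, quality weights 644 lower, and the sex covariate 366 and 230. Leaving out a library gave 155 to 679 higher and 127 to 532 lower, with 208, 155 and 181 higher without Jag1+/+ replicates 1, 2 and 3. Of the calls over all genes 62.0% were higher with TMM, 74.3% with library totals, and 79.3% and 78.5% with RPKM. Library totals moved the median of all genes by 0.13, and RPKM with a pseudocount of 1 by 0.18; relative to these the members' median was 0.22 and 0.23, against 0.19 with TMM.

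Same-numbered libraries correlated at 0.0856, 0.170 and 0.195 in their deviations from the genotype means. Each library correlated best with its own number, which is a hint from the data and not from the design. The libraries of each same-numbered pair were of opposite sex by their reads, so a difference within a pair is also one between the sexes. With the replicate number as a block, edgeR called 843 genes higher, 587 lower and 0 members, with a member median of 0.19; 8 erythroid and 6 megakaryocyte markers and 1 E2F factor, E2f4, were then higher, as were 3 macrophage markers and Des, while 0 B cell precursor and 3 hepatocyte markers were lower. The members had 20 to 15225 reads per library, fewest for Cdk6 in Jag1Ndr/Ndr replicate 1, where counting error is largest.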
